A study of Mus musculus with 10 samples.

Results

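The genes described here are 40 immediate early and cytosolic heat shock genes, a pair of stress response programmes that mark cells taken out of a tissue by enzymatic digestion. They were chosen by name, as the rows of the deposited transcript table whose gene symbol is on a list of 28 immediate early and 12 heat shock genes, and read counts were summed per symbol. All 40 symbols were found among the 24541 symbols of the table, and 39 passed the filter on low counts that left 15123 genes for testing. The gene that did not pass was Fosl1, a FOS family member, with 58 counts over all libraries and at most 18 in any of them.

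RNA was sequenced from mouse kidney cells held by magnetic beads against F4/80, the macrophage surface protein encoded by Adgre1. The mice were 4 heterozygotes carrying the C105F/+ substitution in Umod, which encodes the urinary protein uromodulin, and 6 wild-type littermates. All were on the C57BL/6 background, were 12 to 16 weeks old, and the edit was made with Cas9 in C57BL/6J embryos. In every animal of both groups the perfused kidney was minced, digested with Liberase TL and DNase for 30 minutes at 37 °C and passed through a 40 µm mesh, and dead cells were removed before selection on the beads. The mice are called mutant 1, 2, 4 and 5 and wild type 1 to 6, after the numbers in their labels. No library of undigested kidney was analysed here, so the levels below are those after this handling in every mouse.

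Immediate early genes are transcribed within minutes of a stimulus from signalling pathways already in place, without new protein synthesis. Their products are mostly transcription factors, together with phosphatases and RNA-binding proteins that switch the same pathways off again. Heat shock genes are driven by the factor HSF1 when unfolded protein draws chaperones away from it, and encode the HSP70 and HSP90 chaperones, their co-chaperones and small heat shock proteins. Both programmes are known to start during warm enzymatic digestion of kidney and other tissues, in tubule cells as well as in macrophages.

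Each programme is known to be switched on through short sites, many of them near gene starts. RefSeq promoter entries on GRCm38.p6, which run from 250 bases before to 50 bases after each annotated start, were matched for 31 of the 40 genes, 23 immediate early and 8 heat shock. Fosl1, Egr1, Egr3, Ier2, Myc, Hspa8, Hsp90aa1, Hsp90ab1 and Hsf1 had no entry. The heat shock element core, searched as GAANNTTC, which reads the same on both strands, lay in the windows of 7 of the 8 heat shock genes, namely Hspa1a, Hspa1b, Hspb1, Dnaja1, Hspb8, Hsph1 and Bag3. It was in 7.86% of all 32851 promoter entries and in 2 of the 23 immediate early genes, Fosl2 and Jun. Here and below a gene was counted if any of its entries held the motif. The 8 heat shock genes had 12 entries and the 23 immediate early genes had 29. Counts of genes and shares of entries are therefore unlike measures. The sequences below are the 150 bases that end just before the start, shown for the heat shock genes with the core in that stretch, with the core in capitals. They were read 5′ to 3′ on the strand of the gene, at chr17:34972157-34972306 (minus), chr17:34959239-34959388 (minus), chr5:135887769-135887918 (plus) and chr4:40722318-40722467 (plus).
Hspa1a: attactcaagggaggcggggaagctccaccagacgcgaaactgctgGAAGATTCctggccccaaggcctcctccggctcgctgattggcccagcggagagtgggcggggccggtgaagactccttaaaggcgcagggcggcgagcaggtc
Hspa1b: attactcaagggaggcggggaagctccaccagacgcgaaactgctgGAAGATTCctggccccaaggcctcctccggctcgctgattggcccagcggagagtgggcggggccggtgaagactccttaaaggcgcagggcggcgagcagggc
Hspb1: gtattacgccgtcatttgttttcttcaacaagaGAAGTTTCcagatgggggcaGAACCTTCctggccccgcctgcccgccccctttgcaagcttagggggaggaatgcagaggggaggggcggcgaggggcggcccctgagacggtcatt
Dnaja1: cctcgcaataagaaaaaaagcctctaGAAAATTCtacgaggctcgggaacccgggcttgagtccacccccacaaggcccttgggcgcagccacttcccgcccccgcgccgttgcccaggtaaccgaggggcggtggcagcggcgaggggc
The Hspb1 window held the core 2 times and the other windows held it once. Hspa1a and Hspa1b, which encode the same inducible HSP70, were identical at 149 of these 150 bases. Their coding sequences were 99.4% identical, with 1918 bases shared of 1926 in Hspa1a and 1929 in Hspa1b, so that the split of reads between this pair is uncertain. The longer element of 3 units, searched as the core followed by NNGAA, on both strands and so overlapping the core, was found only in Hsph1 among these genes and in 0.603% of all entries.

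Sites of the immediate early programme were sparser in the same windows. The CArG box bound by serum response factor, searched on both strands, was in Zfp36, Egr2 and Dusp5, 3 of 23 immediate early genes, against 1.63% of all entries. The cAMP response element TGACGTCA, which reads the same on both strands, was in Btg2, Dusp1 and Maff, again 3 of 23, against 1.79% of all entries. The AP-1 site TGANTCA, also the same on both strands, was in none of the immediate early genes, in Bag3 among the heat shock genes and in 7.81% of all entries. The examples below show the 150 bases before the start of 2 genes with a CArG box and of 1 gene with a cAMP response element, with that motif in capitals, at chr7:28379229-28379378 (minus), chr10:67537719-67537868 (plus) and chr17:26508473-26508622 (minus).
Zfp36: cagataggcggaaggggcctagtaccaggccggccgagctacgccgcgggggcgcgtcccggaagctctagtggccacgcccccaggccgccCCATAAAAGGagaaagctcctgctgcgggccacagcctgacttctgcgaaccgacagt
Egr2: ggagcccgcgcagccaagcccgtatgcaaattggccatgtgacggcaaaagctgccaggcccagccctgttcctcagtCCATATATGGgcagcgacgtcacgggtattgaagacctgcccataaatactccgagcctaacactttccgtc
Dusp1: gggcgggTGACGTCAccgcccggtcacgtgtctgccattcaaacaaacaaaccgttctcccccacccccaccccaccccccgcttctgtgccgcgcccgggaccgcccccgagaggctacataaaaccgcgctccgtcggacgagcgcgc
Zfp36 and Egr2 were among the genes whose levels followed Fos most closely over the mice, as described further on. So were Jun and Ier3, which had neither of these 2 motifs in their windows, while Dusp1 had a lower r with Fos, 0.73. A relation between motifs and levels was not tested. A motif match describes these letters only, and no occupancy of any site was measured.

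The libraries held between 45380415 and 73643200 estimated counts, and the 40 genes took from 0.65% of them in wild type 4 to 1.23% in mutants 1 and 5. The selected cells were a mixture in which tubule RNA was abundant. The summed level of 13 proximal tubule markers was 32558 to 68311 CPM (read counts scaled for library size by TMM) in mutants and 29884 to 75468 CPM in wild types. The sum of 16 macrophage markers was 1153 to 13929 CPM in mutants and 395 to 6289 CPM in wild types. In such bulk libraries fewer cells of a type and less RNA per cell cannot be told apart, nor can the cell type that made an mRNA be read from its level. The sum of 10 markers of the thick ascending limb and distal tubule, Umod included, was 3591 to 9880 CPM in mutants and 11899 to 25384 CPM in wild types, so these groups did not overlap. Umod itself, whose counts cannot show the substitution, measured 1004 to 4331 CPM in mutants and 5784 to 15138 CPM in wild types. Blood cell markers were present as well. The sum of 6 neutrophil markers was 2.06 to 24.5 CPM in mutants and 0.781 to 13.3 CPM in wild types. Ly6g, on that list, was at 0 in every library. T cell markers summed to 9.81 to 71.3 CPM in mutants and 5.81 to 39.4 CPM in wild types. For B cell markers the sums were 4.65 to 19.4 and 1.2 to 14.9 CPM, and for erythroid markers 78.2 to 493 and 253 to 3139 CPM.

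Per length, the most abundant members were constitutive chaperones. By the deposited FPKM values, Hspa8 had a mean of 1200 over the 10 libraries, Hsp90ab1 619, Fos 305, Hsp90aa1 279, Zfp36 227 and Junb 179. At the other end, Fosl1 had a mean of 0.0589, Egr3 0.648 and Dusp2 1.68.

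**Figure D1:**
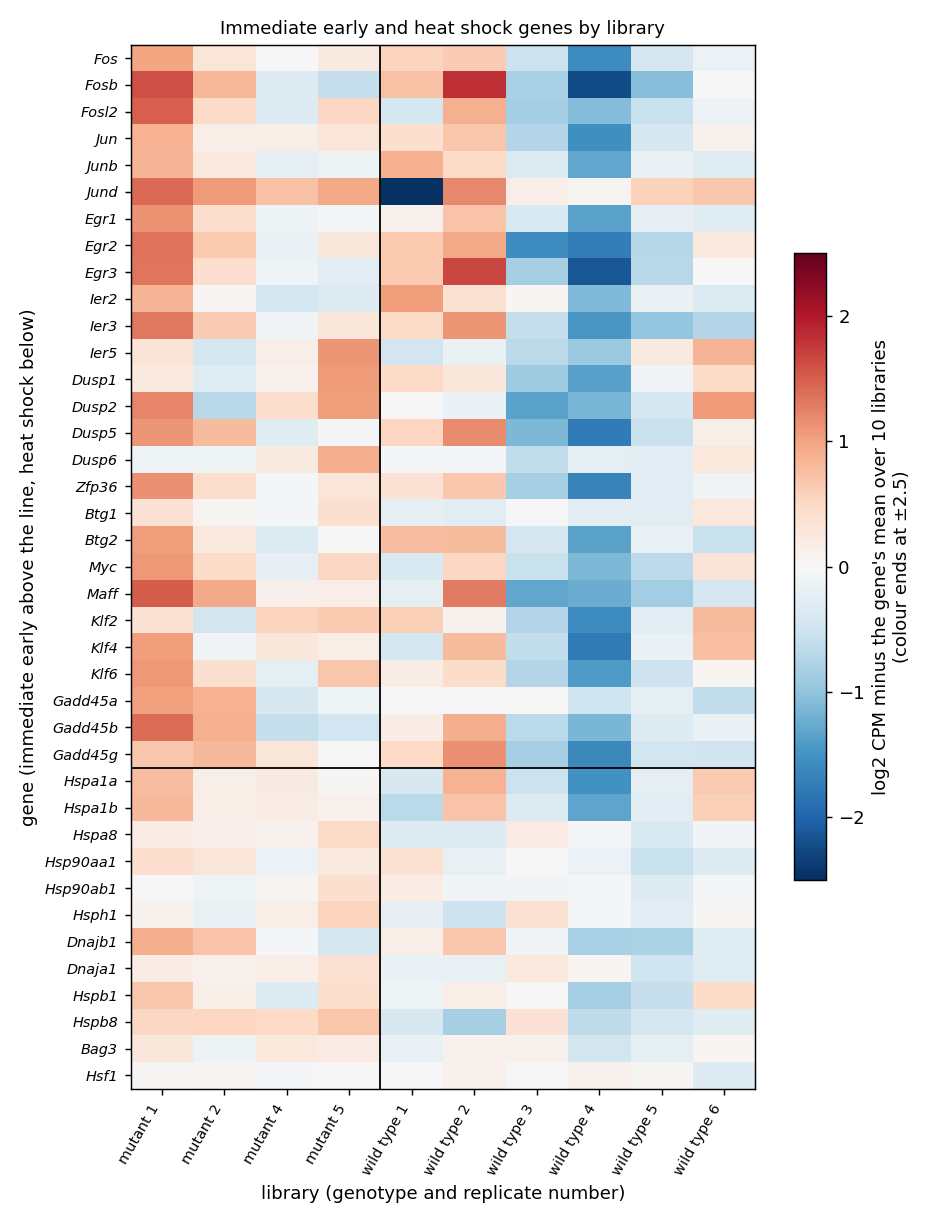
Heat map of log2 CPM of the 39 tested genes (rows) in the 10 libraries (columns), each gene centred on its own mean over the libraries. The immediate early genes were highest as a group in mutant 1 and lowest in wild type 4, and most heat shock genes vary less than they do.

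The immediate early genes differed widely from mouse to mouse, and mice of the same genotype spanned most of the range. Each gene was centred on its mean log2 CPM over the 10 libraries, and the 27 tested immediate early genes were then averaged per library. Mutants 1, 2, 4 and 5 had averages of 0.99, 0.34, -0.03 and 0.28, and wild types 1 to 6 had averages of 0.00, 0.67, -0.65, -1.27, -0.38 and 0.06. The groups overlapped, with wild type 2 above 3 of the 4 mutants. The average of wild type 1 was pulled down by Jund, which was at 1.18 CPM there, as described further on. In wild type 1, 18 of the 27 genes lay above their means, against 26, 21, 10 and 17 in mutants 1, 2, 4 and 5. Mutant 1 was the highest library for 16 of the 27 genes and wild type 4 the lowest for 22 of them. Immediate early transcripts made up 0.596% of all counts in mutant 1, 0.504% in wild type 2 and 0.132% in wild type 4.

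The standard deviation of log2 CPM over the 10 libraries had a median of 0.76 for the 27 immediate early genes, against 0.36 for all 15123 tested genes. Of the 27, 26 lay above that overall median, but only 1 (3.7%), Jund, lay above the 90th percentile of all genes. By definition 10% of all genes do, so these genes varied more than most but were not among the most variable. Within the 6 wild types alone the median was 0.81 for these genes and 0.33 for all tested genes. The 12 heat shock genes had a median of 0.32 over the 10 libraries, and 5 of them lay above the median of all genes. Heat shock averages per library, centred the same way, were 0.40, 0.16, 0.09 and 0.26 in mutants 1, 2, 4 and 5 and -0.15, 0.05, 0.02, -0.46, -0.38 and 0.01 in wild types 1 to 6.

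No gene of either class passed the test of mutant against wild type. With edgeR's quasi-likelihood test and Benjamini-Hochberg adjustment over all 15123 genes, 0 of the 39 were called at an adjusted p under 0.05, and 30 of all genes (0.198%) were. The smallest adjusted p among the 39 was 0.226, for Hspb8. At an unadjusted p under 0.05 there were 3 of 39, namely Hspb8, Gadd45a and Hspa8, against 892 of all genes (5.90%). With DESeq2, 1 of the 39 was called, Hspb8, against 143 of 15108 genes (0.947%). On simulated counts the edgeR test recovered 50% of 2-fold rises, which were placed in genes drawn at random from the better counted ones. The SE of the log2 fold change had a median of 0.41 for the immediate early genes, 0.19 for the heat shock genes and 0.22 for all tested genes. Recovery among genes as variable as the immediate early ones was not simulated separately. The highest log2 fold change among the 39 was 0.95, short of 2-fold, so a missing call does not show that a gene was unchanged.

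All 39 log2 fold changes were nevertheless above 0, which describes these mice and is no test, since the genes vary together. Over all tested genes 51.2% were above 0. The median log2 fold change was 0.49 for the immediate early genes and 0.33 for the heat shock genes, beside 0.01 for all tested genes. Single mice weighed heavily on both values. Without mutant 1 the immediate early median was 0.31, with 22 of 27 genes above 0, and the heat shock median was 0.22. Without wild type 4 the immediate early median was 0.33, with 25 of 27 above 0, and the heat shock median was 0.24. Without wild type 2 they were 0.77 and 0.32. The thick ascending limb and macrophage marker sums given above also differed between libraries, and their part in these fold changes was not tested beyond the fit with a macrophage score as a covariate, in which the immediate early median was 0.71 and no member was called.

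**Figure D2:**
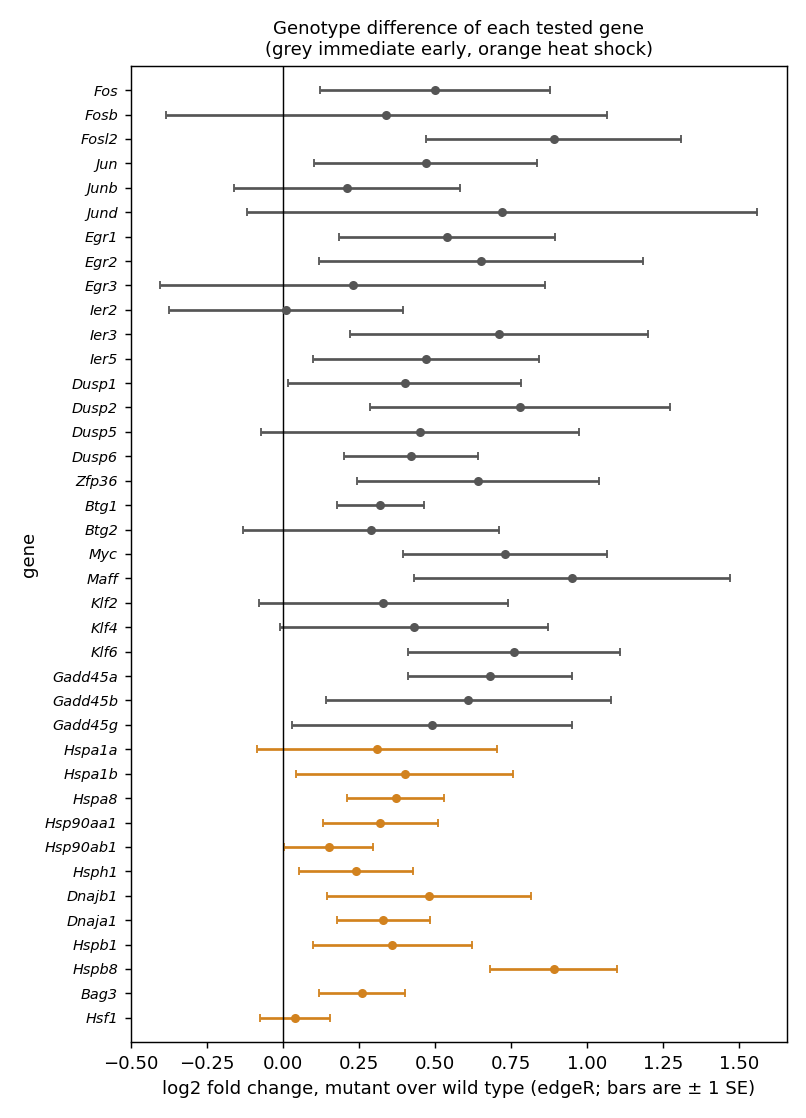
Log2 fold change of mutant against wild type for the 39 tested genes, with bars of 1 standard error from the edgeR fit. Every point lies at or above 0.01, most bars of the immediate early genes are wide, and Hspb8 at 0.89 (SE 0.208) stands farthest from 0 relative to its error.

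The AP-1 genes showed the wide scatter most plainly. Fos, on chromosome 12 from 85473901 to 85477270 on mm10, encodes the inducible partner of JUN proteins. It measured 1163, 730, 583 and 685 CPM in mutants 1, 2, 4 and 5, and in wild types it ran from 200 through a median of 486 to 912 CPM. The highest library, mutant 1, was 5.83-fold above the lowest, wild type 4, while 3 mutants fell within the range of the wild types. Its log2 fold change was 0.50 (SE 0.377 and adjusted p = 0.959 by edgeR). Fosb, a second FOS protein, measured 268, 155, 70.5 and 59.2 CPM in the mutants and 18.7 to 313 CPM, median 68.7, in wild types. It had a 16.8-fold range with wild type 2 on top, and its log2 fold change was 0.34 (SE 0.725). Fosl2, another FOS family gene, ran from 10.2 to 60.6 CPM, with a log2 fold change of 0.89 (SE 0.419 and adjusted p = 0.861 by edgeR).

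Jun, the core AP-1 subunit, measured 406, 246, 246 and 273 CPM in mutants and 77 to 359 CPM, median 203, in wild types. Its groups overlapped, as did those of Junb, a JUN protein that restrains growth, which was highest in wild type 1 at 577 CPM and lowest in wild type 4 at 127 CPM. Their log2 fold changes were 0.47 (SE 0.367) and 0.21 (SE 0.372).

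Jund, the JUN protein usually present without stimulation, had 1 library unlike all others. It measured 364, 282, 225 and 261 CPM in the mutants and 143 to 311 CPM in wild types 2 to 6, but 1.18 CPM in wild type 1, where the table lists 35 and 27 counts for its 2 transcripts. Both transcripts are 2878 bases long and lie within chromosome 8 from 70697739 to 70700616 on mm10. Wild type 1 was not low in the other AP-1 genes, with 577 CPM of Junb, 867 CPM of Fos and 292 CPM of Jun. Of 2794 genes at 50 CPM or more in all the other libraries, Jund was the only one that lay more than 50-fold below every one of them in wild type 1, and no other library had such a gene. The 2 transcripts also split unevenly elsewhere, with 12616 and 1 counts in mutant 5 and 8974 and 0 counts in wild type 3, and the sources used here do not say how reads were divided between them. The log2 fold change of Jund was 0.72 (SE 0.838) with wild type 1 and 0.45 (SE 0.241 and adjusted p = 0.815 by edgeR) without it.

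**Figure D3:**
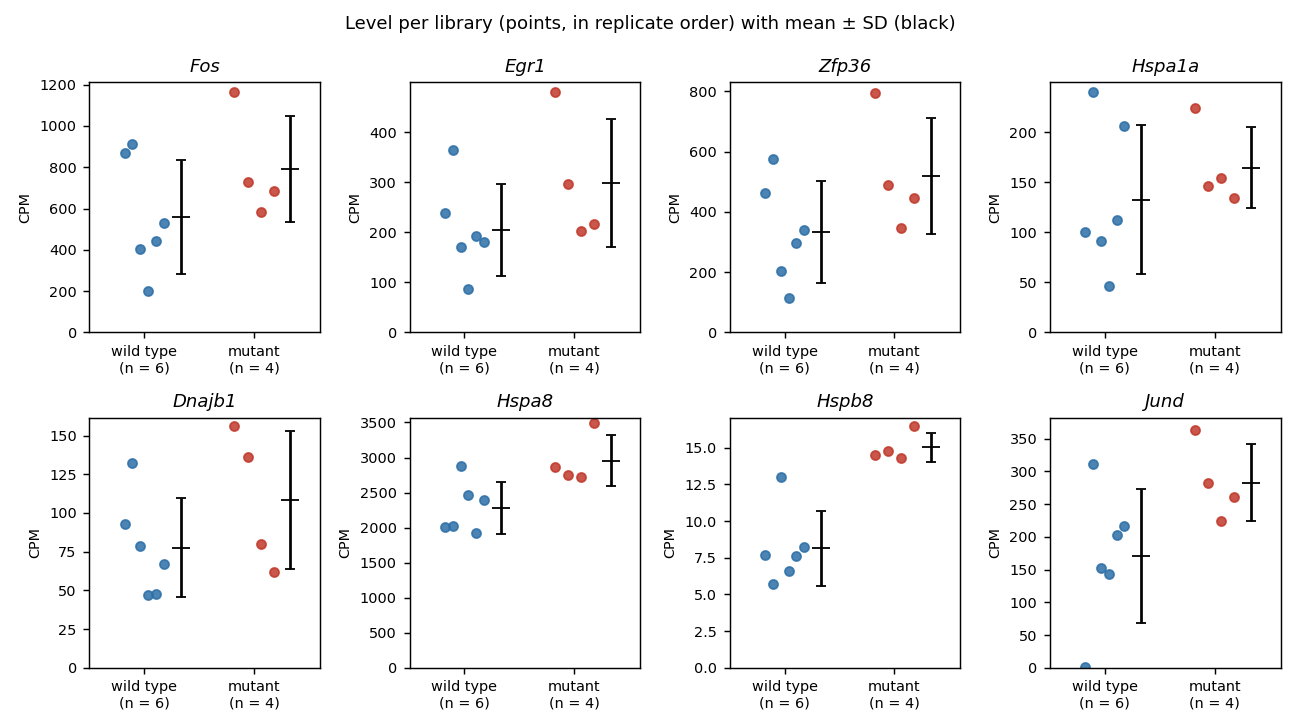
CPM in each wild-type and mutant library (linear axes from 0) for Fos, Egr1, Zfp36, Hspa1a, Dnajb1, Hspa8, Hspb8 and Jund, with 1 point per mouse and the group mean ± SD in black. Only for Hspb8 do the groups not overlap, and the lone low Jund point is wild type 1 at 1.18 CPM.

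The zinc finger factors of the EGR and KLF families also varied more than most genes, and all but Egr3 and Klf2 were highest in mutant 1. Egr1, a factor induced by serum and growth factors, measured 480, 296, 202 and 217 CPM in mutants and 87.5 to 364 CPM, median 186, in wild types. Wild type 4 was the lowest, and the groups overlapped, with a log2 fold change of 0.54 (SE 0.355 and adjusted p = 0.959 by edgeR). Egr2 and Egr3 were more variable, from 1.66 to 14.1 CPM and from 0.462 to 6.50 CPM in wild type 2, with standard deviations of log2 CPM of 1.03 and 1.08 against 0.67 for Egr1. Klf2, known for its response to shear stress in endothelium, ran from 16.3 CPM in wild type 4 to 84.0 CPM in wild type 6. Klf4, a regulator of differentiation, ran from 5.77 to 40.9 CPM, and Klf6, an injury-induced factor, from 67.1 to 378 CPM, both highest in mutant 1. Klf6 had a log2 fold change of 0.76 (SE 0.348 and adjusted p = 0.84 by edgeR). Myc, the growth regulator, and Maff, a small MAF protein, had log2 fold changes of 0.73 (SE 0.337) and 0.95 (SE 0.52), the latter the highest of all members, with wild type 2 at 11.0 CPM inside the range of the mutants.

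Another set of members encodes regulators of mRNA decay, growth and survival. Zfp36, which encodes tristetraprolin, a protein that marks AU-rich mRNAs for decay, measured 796, 490, 348 and 445 CPM in mutants and 114 to 576 CPM, median 319, in wild types. It was highest in mutant 1 and lowest in wild type 4, a 7.01-fold range, and its log2 fold change was 0.64 (SE 0.398 and adjusted p = 0.958 by edgeR). Ier3, a regulator of survival, had a 6.84-fold range with a log2 fold change of 0.71 (SE 0.491). Btg2, an antiproliferative gene and p53 target, ran from 87.7 to 455 CPM, while its relative Btg1 was the steadiest immediate early gene, from 101 to 162 CPM, with a log2 fold change of 0.32 (SE 0.144 and adjusted p = 0.84 by edgeR). Ier2 had the smallest log2 fold change, 0.01 (SE 0.386), with 203, 115, 83.2 and 90.3 CPM in mutants and 52.2 to 231 CPM, median 108, in wild types.

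The dual-specificity phosphatases remove phosphate from MAP kinases. Dusp1 measured 245, 169, 224 and 437 CPM in mutants and 81.5 to 291 CPM, median 224, in wild types, and it was highest in mutant 5. The ERK phosphatase Dusp6 measured 60.4, 60.6, 76.4 and 123 CPM in mutants and 43.0 to 78.5 CPM in wild types. Ier5, a stress-induced gene linked to HSF1 activity, measured 60.3, 35.3, 53.8 and 103 CPM in mutants and 25.1 to 86.0 CPM in wild types. These 3 genes, and Btg1, peaked in mutant 5, the library with the most Adgre1, at 819 CPM. Over all libraries, r with Adgre1 was only 0.26 for Dusp1 (rho = 0.08), and -0.15 within wild types. The r of Ier5 and Dusp6 with Adgre1 is given further on. Dusp2 and Dusp5 were low, at 0.895 to 5.27 CPM and 1.04 to 7.92 CPM. Their log2 fold changes were 0.40 for Dusp1, 0.42 for Dusp6, 0.47 for Ier5, 0.78 for Dusp2 and 0.45 for Dusp5, and the smallest unadjusted p of the 5 was 0.0866, for Dusp6. Without mutant 5 the log2 fold changes were 0.07 for Dusp1, 0.13 for Dusp6 and 0.12 for Ier5.

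The growth arrest genes Gadd45a, Gadd45b and Gadd45g encode small proteins that act on stress kinases and the cell cycle. Gadd45a measured 141, 127, 52.3 and 64.5 CPM in mutants and 45.1 to 69.7 CPM, median 63.5, in wild types. Mutants 1 and 2 stood above all wild types and mutants 4 and 5 within their range, with a log2 fold change of 0.68 (SE 0.27 and adjusted p = 0.783 by edgeR). Gadd45b and Gadd45g had log2 fold changes of 0.61 (SE 0.468) and 0.49 (SE 0.461), and both were lowest in wild type 4.

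Among the heat shock genes, Hspb8 was the one whose groups did not overlap. It encodes a small heat shock protein that works with BAG3 in delivering misfolded proteins to autophagy, and lies on chromosome 5 from 116408491 to 116422864 on mm10. It measured 14.5, 14.8, 14.3 and 16.5 CPM in mutants, and 7.69, 5.71, 13, 6.59, 7.60 and 8.24 CPM in wild types 1 to 6. Every mutant was above every wild type, with wild type 3 closest to them, and the same was so for 143 of all tested genes (0.946%). The log2 fold change was 0.89 (SE 0.208, unadjusted p = 0.00136 and adjusted p = 0.226 by edgeR). It passed at an adjusted p of 0.0254 with DESeq2. In edgeR it passed at 0.0263 without wild type 3 and at 0.0401 in the 8 libraries whose replicate numbers both genotypes share. Those 8 libraries leave out wild types 3 and 6, so both of these edgeR fits lack wild type 3. Without wild type 6 alone the adjusted p of Hspb8 was 0.326 by edgeR. Its adjusted p was up to 0.597 when another library was left out and 0.684 without the 2 libraries of each genotype lowest in Adgre1. Its partner Bag3 measured 35.9, 26.7, 35.4 and 33.6 CPM in mutants and 21.4 to 31.5 CPM in wild types, which overlapped, with a log2 fold change of 0.26 (SE 0.141 and adjusted p = 0.949 by edgeR).

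The inducible HSP70 genes scattered like the immediate early genes. Hspa1a measured 224, 146, 154 and 134 CPM in mutants and 46.1 to 240 CPM, median 106, in wild types. Hspa1b measured 201, 129, 131 and 124 CPM in mutants and 46.1 to 189 CPM, median 92.7, in wild types. The groups overlapped in both, and the log2 fold changes were 0.31 (SE 0.394) and 0.40 (SE 0.358). With both genes summed to 1, no member was called either. Dnajb1, the HSP40 partner of inducible HSP70, measured 156, 136, 79.9 and 61.9 CPM in mutants and 47.1 to 132 CPM, median 72.9, in wild types, with a log2 fold change of 0.48 (SE 0.336 and adjusted p = 0.959 by edgeR). The small heat shock protein gene Hspb1 ran from 16.7 to 47.0 CPM with a log2 fold change of 0.36 (SE 0.261).

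The constitutive chaperones were steadier. Hspa8, the HSC70 of unstressed cells, measured 2858, 2746, 2717 and 3489 CPM in mutants and 1927 to 2879 CPM, median 2208, in wild types. Wild type 3 alone among the wild types reached the range of the mutants, and the log2 fold change was 0.37 (SE 0.159, unadjusted p = 0.0394 and adjusted p = 0.816 by edgeR). Dnaja1, its HSP40 partner, measured 412, 391, 405 and 469 CPM in mutants and 255 to 430 CPM, median 321, in wild types, with a log2 fold change of 0.33 (SE 0.152 and adjusted p = 0.84 by edgeR). Hsp90aa1 and Hsp90ab1, the inducible and constitutive HSP90 genes, and Hsph1, an HSP70 exchange factor, had log2 fold changes of 0.32 (SE 0.189), 0.15 (SE 0.147) and 0.24 (SE 0.186). Hsf1, the master factor of the heat shock response, was the least variable member, with 17.2, 17.8, 16.6 and 17.1 CPM in mutants and 13.5 to 18.3 CPM in wild types. Its log2 fold change was 0.04 (SE 0.115), and its standard deviation of log2 CPM was 0.12.

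Over the 10 mice, the levels of the immediate early genes varied together. The median Pearson r of log2 CPM was 0.72 over the 351 pairs of immediate early genes, 0.34 over the 66 pairs of heat shock genes and 0.34 over the 324 mixed pairs. Against Fos, the immediate early genes had a median r of 0.85 and the heat shock genes of 0.41, beside -0.04 for all tested genes. A permutation test with 100000 resamples, adjusted over all 15122 genes set against Fos, was passed by 10 genes (0.0661%), and 5 of these were among the 38 other members. At an unadjusted p under 0.05 there were 24 of 38 members and 676 of all genes (4.47%). When each library was left out in turn, between 0 and 6 members passed, and without mutant 1 or any 1 of wild types 2 to 6 neither a member nor any other gene did. With this many genes and resamples no gene can pass on its own, even at the smallest possible p. Whether it passes hangs on the p of other genes too, so the sizes of r below say more than the count.

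The 5 genes that passed were Jun, Zfp36, Egr2, Ier3 and Btg2. Zfp36 had r = 0.98 (rho = 0.99, permutation p = 1e-05 for both, the smallest possible, adjusted p = 0.0302 for r and 0.0378 for rho). Its r was 0.95 without wild type 4 and mutant 1, the libraries farthest from the median of Fos, and 0.98 within the 6 wild types. Jun had the same r and rho, with 0.93 and 0.98 in those subsets. Egr2 had r = 0.94 (rho = 0.99, permutation adjusted p = 0.0302), Ier3 r = 0.94 (rho = 0.95, adjusted p = 0.0336) and Btg2 r = 0.94 (rho = 0.94, adjusted p = 0.0454). By rho, Ier3 and Btg2 did not pass, with adjusted p of 0.119 and 0.18. In both subsets all 5, which were singled out by their high r, had an r of at least 0.87. Other members had lower values without the 2 farthest mice, with r of 0.58 against 0.83 for Ier2 and for Myc and 0.33 against 0.81 for Klf4.

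Just outside the threshold stood Dusp5 (r = 0.94, permutation adjusted p = 0.0504), Egr1 and Egr3 (each r = 0.95, adjusted p = 0.054), Junb (r = 0.94, adjusted p = 0.0662) and Klf6 (r = 0.94, adjusted p = 0.0672). A few immediate early genes followed Fos little, namely Dusp6 with r = 0.29, Ier5 with r = 0.38 and Btg1 with r = 0.39. Jund had r = -0.10 and rho = 0.66, the difference lying in its value in wild type 1.

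The r of the 12 heat shock genes with Fos ran from -0.18 to 0.81. Hspa1a had r = 0.81 with Fos, Dnajb1 0.80, Hspa1b 0.74, Hspb1 0.74, Bag3 0.62 and Hsp90aa1 0.54. Lower values were those of Hspb8 with 0.29, Hsp90ab1 0.25, Dnaja1 0.06, Hspa8 0.03, Hsf1 0.01 and Hsph1 -0.18. None of them passed the adjusted test, and without wild type 4 and mutant 1 r was 0.41 for Hspa1a, 0.23 for Hspa1b and 0.32 for Hspb1, so these rest largely on those 2 mice. Dnajb1 kept an r of 0.68. With Hspa8, r was 0.90 for Dnaja1, 0.86 for Hsph1 and for Hspb8, 0.55 for Hsp90ab1, 0.48 for Hsp90aa1 and 0.02 for Hspa1a. Hspa1a and Hspa1b had r = 0.98 with each other. The reads of that pair may not be told apart, as given above.

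**Figure D4:**
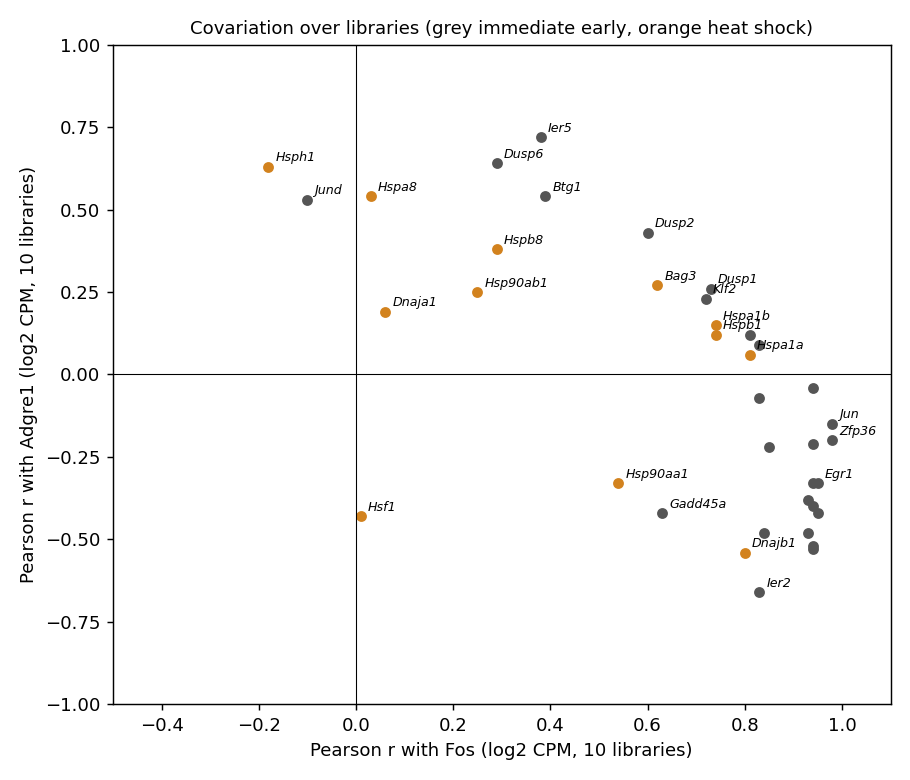
Pearson r of each tested member with Fos (x axis) and with Adgre1 (y axis) over the 10 libraries, with immediate early genes in grey and heat shock genes in orange. Most immediate early genes lie to the right, at r with Fos above 0.7, while r with Adgre1 spreads from -0.66 to 0.72.

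Beyond the members, the 10 genes most like Fos among 12065 others whose log2 CPM averaged 1 or more were Socs3, Cyr61, Csrnp1, Trib1, Clk1, Atf3, Nr4a1, Cebpd, Nfkbia and Apold1, all with r of at least 0.93. Of these, 8 were on a list of 46 further immediate early genes, of which 42 were tested. Socs3, an inhibitor of cytokine signalling, had r = 0.98 and ran from 17.7 CPM in wild type 4 to 195 CPM in mutant 1. Atf3, a stress-induced factor, ran from 14.8 to 256 CPM between the same 2 mice. On that list 39 of 42 log2 fold changes were above 0 with a median of 0.44, none was called and 5 had an unadjusted p under 0.05. Its smallest p values were those of Zfp36l1, a relative of Zfp36, with a log2 fold change of 0.69 (SE 0.185 and adjusted p = 0.356 by edgeR), and of the kinases Plk2 and Plk3, with 0.63 and 1.02. The median r with Fos was 0.65 on this list.

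Other genes around these programmes had smaller medians. Of 44 other cytosolic chaperone genes none was called, 33 had a log2 fold change above 0 and the median was 0.09, and the smallest p values were those of Chordc1, Cacybp and Dnajb5. Of 23 kinases and factors upstream of immediate early genes none was called, 18 were above 0 and the median was 0.06, and the smallest p values were those of Rps6ka1, Map2k7 and Atf1. Their median r with Fos was 0.28 and -0.07.

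The members were compared with the cell mixture as well, because Adgre1 differed 58.6-fold between mice. Adgre1 measured 58.2, 58.6, 229 and 819 CPM in mutants 1, 2, 4 and 5 and 14.0, 27.5, 63.9, 102, 145 and 406 CPM in wild types 1 to 6. Of the 39 members 0 were correlated with it at a permutation p adjusted over all genes, whereas 4544 of 15122 genes (30.0%) were. At an unadjusted p under 0.05 there were 3 of 39 members, against 6521 of all genes (43.1%). The 3 were Ier5 with r = 0.72 (rho = 0.54, permutation adjusted p = 0.0586), Dusp6 with r = 0.64 (rho = 0.38, permutation adjusted p = 0.107) and Ier2 with r = -0.66 (rho = -0.81, permutation adjusted p = 0.094). Ier2 passed by rho, at an adjusted p of 0.0362. Without mutant 5 and wild type 1, the libraries farthest from the median of Adgre1, r was 0.55 for Ier5, 0.52 for Dusp6 and -0.55 for Ier2, and within wild types it was 0.60, 0.21 and -0.73. Against a score of the 16 macrophage markers 1 of 39 members passed, Ier5, and 4453 of 15123 genes did. Ier5 had r = 0.76 with that score (rho = 0.68, permutation adjusted p = 0.0388 and 0.107). Its r was 0.38 without mutant 5 and wild type 6, the libraries farthest from the median of the score.

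Fos itself had r = -0.29 with Adgre1 (rho = -0.55, permutation p = 0.422 and 0.105). Its r was -0.36 without mutant 5 and wild type 1 and -0.52 within wild types. The median r with Adgre1 was -0.21 for the immediate early genes and 0.17 for the heat shock genes, beside 0.06 for all tested genes. Mutant 1, the highest mouse for Fos, and mutant 2 had nearly the same Adgre1. With the proximal tubule gene Slc34a1, 0 of 39 members passed the adjusted test, against 5 of all genes (0.0331%). At an unadjusted p under 0.05 there were 3 of 39 for Slc34a1, against 2269 of all genes (15.0%). The summed levels of 11 cell type marker lists were also set against Fos, and none passed. The nearest was the podocyte list, with r = -0.55 (rho = -0.65, permutation p = 0.0994 and 0.0495, adjusted p = 0.928 and 0.544).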

How the data were processed

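Estimated read counts and FPKM values came from 1 transcript table of mm10 that the authors deposited, with both columns for each of 10 libraries. The submitters' processing notes name StringTie 1.3.4d, HISAT2 2.1.0, Trimmomatic 0.38, Bowtie2 2.3.4.1 and DESeq2, without a role for any of them. The deposited estimated counts were whole numbers not scaled for depth, so no rounding was needed. The deposited FPKM values, scaled by the authors for length and depth, were used only to compare levels between genes.

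Counts were summed per symbol, filtered with filterByExpr and scaled by TMM. Mutants and wild types were compared with the quasi-likelihood test of edgeR 4.0.16 (R 4.3.3; robust, no covariate), adjusted over all 15123 genes. Log2 CPM used a prior count of 2. Relations over libraries were tested by two-sided permutation with 100000 resamples against Fos, Adgre1, Slc34a1 and 2 marker scores, and p was adjusted within each over all tested genes, not over the members as first planned. The members and lists were chosen with earlier results of these data known. Members were named throughout, and of other genes the 10 most like Fos and the 3 of each related list with the smallest p. Alternatives were other scalings, filters, DESeq2 1.42.0, limma 3.58.1, covariates, a replicate block and left-out libraries. The edgeR test, but not the permutation tests, was tried on simulated counts with 50 changed genes per size of change. It recovered 90% of 4-fold and 50% of 2-fold rises. Of falls to 0.25 and to 0.5 of the level it recovered 82% and 38%, and 2.26% of its calls were false. Within each genotype no pair of libraries was a duplicate, and pairs across genotypes were not compared. Each library is 1 mouse, per the labels. Counting error is small at this depth except for genes with few counts.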

Additional observations from a re-analysis of the deposited data

Results flagged for a closer look

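Among 78 groups of libraries, 1 per tested gene and genotype, 3 held a library far from the rest by Dixon's test, which chance alone flags in about 1 in 20 groups. Jund was at 1.18 CPM in wild type 1, the lowest of the 6 wild types, which were otherwise at 143 CPM or more. Hspa1b was at 201 CPM in mutant 1, the highest of the 4 mutants, which were otherwise at 131 CPM or less. Hsf1 was at 13.5 CPM in wild type 6, the lowest of the 6 wild types, which were otherwise at 16.7 CPM or more.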

How the results depend on the processing

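The number of all genes called, 30 in edgeR, was 143 with DESeq2, 52 with a macrophage score as covariate, 13 without the 2 libraries of each genotype lowest in Adgre1 (chosen after seeing the data) and 14 to 24 with each library left out in turn. The replicate numbers shared by 8 libraries were not taken as pairs, because deviations of same-numbered libraries correlated at 0.426, 0.278, 0.0174 and 0.445, over 0.1 in 3 of 4 pairs but not in all; the fit with a replicate block called 217 genes, against 21 in the same 8 libraries without it. Of 39 members, Hspb8 alone was called with DESeq2, with the replicate block, in those 8 libraries without a block and without wild type 3. Its log2 fold change was 0.88, 1.13, 1.12 and 1.07. Its adjusted p was 0.0254 with DESeq2, and 0.0275, 0.0401 and 0.0263 in the edgeR fits. The 8 libraries also leave out wild type 3, along with wild type 6. Leaving out each library in turn called 0 to 1 members. With each library left out, 0 to 6 members correlated with Fos (5 with all libraries) and 0 to 2 with Adgre1 (Ier2 and Ier5 without wild type 4). With all libraries kept, 1 member, Ier5, correlated with a macrophage score. Among the values of single members, 758 kept their direction and side of the threshold and 18 changed sign, all for genes without a call. With each library left out, the log2 fold change ran from -0.36 to 0.28 for Ier2, -0.24 to 0.80 for Egr3, -0.22 to 1.00 for Fosb, -0.07 to 0.45 for Junb, -0.07 to 0.50 for Btg2 and -0.02 to 0.06 for Hsf1. Ier2 was at -0.00 with no filter, -0.10 in 8 libraries with no block and -0.06 without the libraries low in Adgre1, where Gadd45b was at -0.02. In 8 libraries Hsf1 was at -0.03 with and without the block and Egr3 at -0.01 without it. The cause of these changes was not tested.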
